A study of Rattus norvegicus with 30 samples.

Results

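Microglia from the injured hemisphere of 3-month-old male rats, taken 3 days after a stroke, were set against microglia from sham-operated rats of the same age. The comparison used 6 of the 30 arrays of the series, 3 per group, chosen by the titles of the samples. The injured group came from rats whose middle cerebral artery had been occluded for 75 min with a filament under 1.2% isoflurane and then reopened. The sham group is labelled only as sham controls, and the labels do not say which hemisphere it came from, how the microglia were isolated, or that its 3 samples came from separate animals. P-values rest only on the spread between samples within groups, pooled over the 10 groups of all 30 arrays, and this spread may be technical. The strain is given as Wistar Kyoto in the sample characteristics and as spontaneously hypertensive in the protocols. Contralateral (opposite hemisphere) samples from the same stroke rats, and injured and sham samples of 12-month rats at day 3, 3 arrays each, served as side values.

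Microglia are the resident macrophages of the brain. In the healthy brain they carry a set of receptors and transcription factors, often called homeostatic, that macrophages entering from the blood largely lack. After ischaemia they multiply, take up dead cells and myelin, store the lipid they ingest, and release cytokines, while monocytes and neutrophils enter the tissue. Taking up cholesterol-rich debris is known to shut down the cell's own sterol synthesis and to switch on genes that export or esterify sterol.

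The values are log2 expression levels (RMA values, which sum up the several probes of each probe set), so that a difference of 1 is a 2-fold difference. Of 11675 genes tested, 6626 (56.8%) differed between injured and sham microglia at an adjusted p under 0.05, of which 2435 (20.9%) were higher and 4191 (35.9%) lower in the injured hemisphere. At 2-fold or more, 218 genes (1.87%) were higher and 661 (5.66%) lower. The arrays of the groups did not overlap for 61.2% of genes. These shares are the background against which the lists below are to be read: a list with about 1 in 5 members higher and about 1 in 3 lower looked like all genes. The shares also changed with the level of the genes, as given below.

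A limit bears on every one of these calls. The sample codes carry a number that the labels do not explain, and at 3 months it is one number for the sham samples and another for the stroke samples of day 3. Group and number cannot be told apart in this comparison. The values over an array had a standard deviation of 1.84 to 1.87 on the injured arrays, 1.79 to 1.87 on the contralateral arrays and 1.97 to 2.0 on the sham arrays. The genes were split into 5 bins of 2335 by mean level over the 6 compared arrays. The median injured minus sham difference was 0.14 in the lowest bin and -0.40 in the highest. In the lowest bin 671 genes were called higher and 118 lower, and in the highest bin 356 and 1418. A list of highly expressed genes with most members lower can thus look like other genes of its level. The contralateral minus sham difference, which crosses the same numbers and shares the sham arrays, had medians of 0.14 and -0.41 in those bins. The injured minus contralateral difference, which lies within 1 number, had medians of -0.02 and -0.01. After cyclic loess, which bends each array's values onto the others along the level, the injured minus sham medians were 0.00 and -0.05. Counts for the pathway and state lists are therefore given with the deposited values, after cyclic loess, and beside injured minus contralateral, which shares the injured arrays. Differences of single genes are against sham with deposited values unless another is named.

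**Figure D1:**
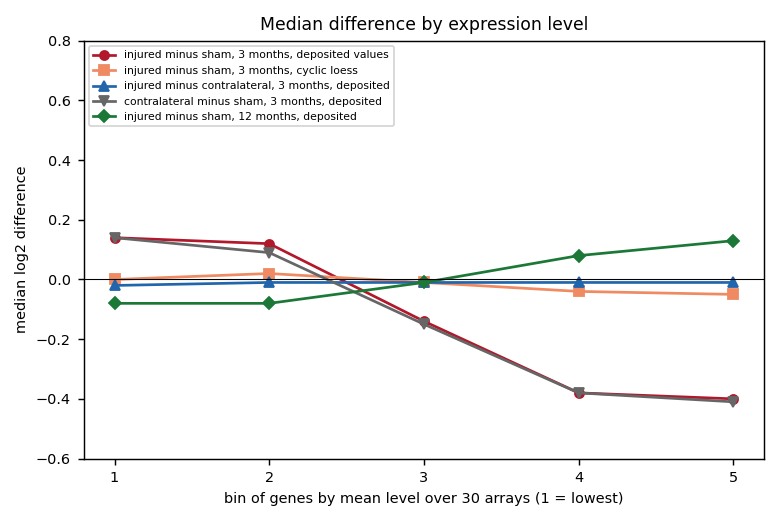
Median log2 difference (y) of the genes in each of 5 bins of mean level (x, 2335 genes per bin) for 5 comparisons, 1 line each. For every line the bins were made from the mean over the 6 compared arrays, although the axis label names 30. Injured minus sham and contralateral minus sham with deposited values both fall to about -0.4 at high levels, whereas the other lines stay between -0.08 and 0.13.

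After cyclic loess 5834 genes (50%) were called, 2724 (23.3%) higher and 3110 (26.6%) lower in injured than in sham microglia. At 2-fold or more the counts were then 319 higher (2.73%) and 241 lower (2.06%), so the excess of strongly lower genes was not there after this scaling. Of the 2435 genes called higher, 1755 (72.1%) were called higher again and 0 lower. Of the 4191 called lower, 2843 (67.8%) were called lower again and 9 higher. Called in the same direction with deposited values, after cyclic loess and after quantile scaling were 1749 higher genes (15%) and 2830 lower genes (24.2%). Within the stroke animals, injured against contralateral, 1339 genes (11.5%) were higher and 1045 (8.95%) lower. The fit behind all calls against the contralateral hemisphere had no term for the animal, so the hemispheres of a rat were not paired.

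The genes that stood highest over sham included several known from phagocytes in injured tissue. Spp1, which encodes the secreted adhesion protein osteopontin, was at 10.87, 11.12 and 10.69 on the injured arrays, against 5.75, 5.84 and 5.77 on the sham arrays. Gpnmb, a glycoprotein of lysosome-rich phagocytes, was at 11.21, 10.98 and 10.81 on the injured arrays, against 6.29, 6.52 and 6.17 on the sham arrays. In both genes every injured array lay more than 4 log2 units above every sham array. The difference was 5.11 ± 0.28 for Spp1 (SE, adjusted p = 1.7e-14, 34.5-fold) and 4.67 ± 0.21 for Gpnmb (adjusted p = 1.2e-15, 25.5-fold). After cyclic loess it was 5.53 for Spp1 and 5.01 for Gpnmb, and over the contralateral hemisphere 4.76 for Spp1 and 3.66 for Gpnmb.

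Lgals3 (galectin-3, a sugar-binding protein of activated macrophages) and Cd14 (the co-receptor that hands lipopolysaccharide to Tlr4) followed. Lgals3 was at 11.05, 10.57 and 10.06 on the injured arrays and at 6.57, 6.95 and 6.38 on the sham arrays, a difference of 3.93 ± 0.23. Cd14 was at 10.50, 10.34 and 10.38 in injured and at 6.70, 6.84 and 6.39 in sham microglia, a difference of 3.77 ± 0.21. The 3 injured arrays lay close together for Cd14 (SD 0.08) and were more spread for Lgals3 (SD 0.49), and neither gene overlapped with sham. Both differences were larger after cyclic loess, at 4.32 for Lgals3 and 4.19 for Cd14.

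The other 8 of the 12 highest genes were spread over the injured arrays. Apoc1, an apolipoprotein, was at 10.18, 7.81 and 7.66 on the injured arrays, against 4.98, 5.60 and 5.22 on the sham arrays. Anpep, an aminopeptidase of myeloid cells, was at 8.56, 7.24 and 5.76 in injured and at 4.18, 4.24 and 4.28 in sham microglia. Replicate 1 was the highest injured array and replicate 3 the lowest in both, and the SD over the injured arrays was 1.41 for Apoc1 and 1.40 for Anpep. The same order of injured arrays held for Ifitm1 (an interferon-induced membrane protein, 10.68, 9.68 and 8.51), S100a11 (a calcium-binding protein, 11.13, 10.67 and 8.87), Il1rn (the interleukin-1 receptor antagonist, 8.70, 8.49 and 6.81), Cxcl1 (a neutrophil attractant, 11.23, 10.45 and 9.64) and Lilrb4 (an inhibitory receptor, 9.43, 8.76 and 6.74). Their differences from sham were 4.08 ± 0.41 for Ifitm1, 3.87 ± 0.58 for S100a11, 3.29 ± 0.30 for Il1rn, 2.91 ± 0.35 for Cxcl1 and 2.84 ± 0.44 for Lilrb4. For S100a11 the sham arrays were also uneven, at 6.84, 7.21 and 5.02. Fabp4, a fatty acid carrier of macrophages and fat cells, was at 7.78, 7.01 and 5.71 on the injured arrays and at or below the 30th percentile on every sham array, so that it was at least 2.65 log2 units higher in injured microglia.

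**Figure D2:**
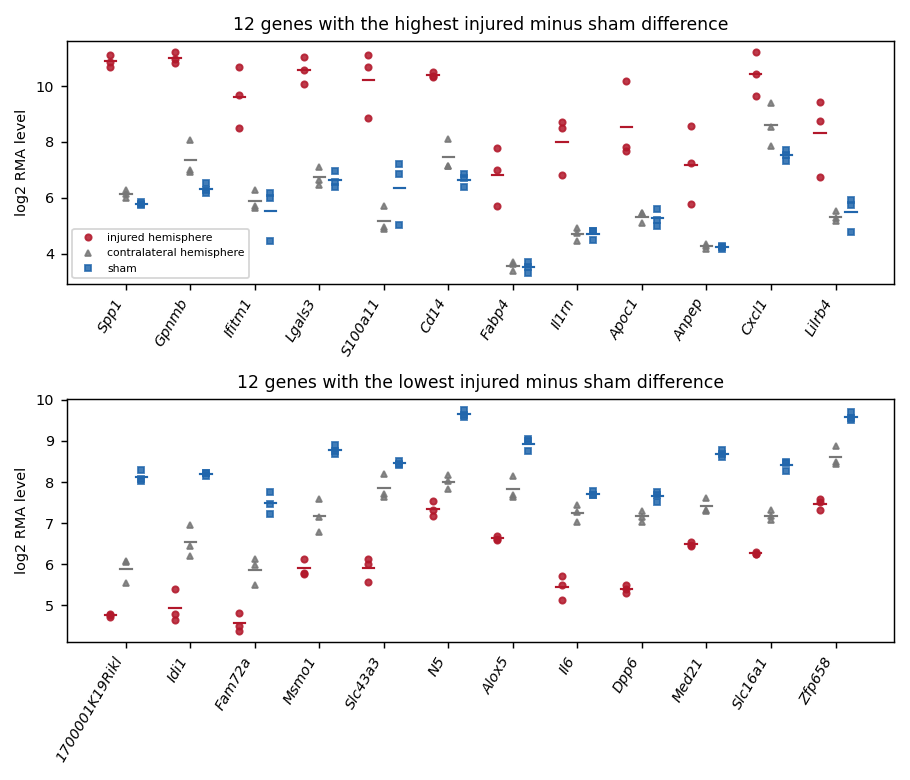
Log2 level (y) of the 12 highest and 12 lowest genes (x) on each array, with injured arrays as circles, contralateral arrays as triangles and sham arrays as squares, and a bar at each group's mean (n = 3). Injured and sham arrays are apart for all 24 genes because the rule that chose them required it, and the contralateral arrays of the 12 lowest genes lie between them.

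The 12 lowest genes had an SD over the injured arrays of 0.02 (Slc16a1) to 0.40 (Idi1). These genes included 2 enzymes of sterol synthesis, an interleukin, a lipoxygenase and a lactate carrier. Il6, an inflammatory cytokine, was at 5.14, 5.49 and 5.71 on the injured arrays, at 7.27, 7.45 and 7.04 on the contralateral arrays and at 7.68, 7.68 and 7.78 on the sham arrays. It fell by 2.26 ± 0.19 against sham (adjusted p = 6.4e-11), by 1.97 after cyclic loess and by 1.81 against the contralateral hemisphere, so that most of its difference lay between the hemispheres of the stroke rats. Alox5 (5-lipoxygenase, which starts leukotriene synthesis) was at 6.62, 6.60 and 6.69 in injured, 8.14, 7.63 and 7.69 in contralateral and 9.0, 8.75 and 9.05 in sham microglia. Slc16a1 (the lactate and pyruvate carrier MCT1) was at 6.26, 6.29 and 6.25 in injured, 7.07, 7.17 and 7.31 in contralateral and 8.47, 8.26 and 8.48 in sham microglia. For Alox5 and Slc16a1 the contralateral arrays lay about midway, and the differences from sham were -2.30 ± 0.15 for Alox5 and -2.14 ± 0.11 for Slc16a1, or -1.88 and -1.72 after cyclic loess. The remaining 7 were Slc43a3 (a purine base transporter, -2.56), Dpp6 (a potassium channel partner, -2.26), Med21 (a Mediator subunit, -2.20), Fam72a (-2.92), Zfp658 (a zinc finger gene, -2.12), N5 (-2.30) and 1700001K19Rikl (-3.37). All 7 were called lower after cyclic loess as well, by 1.75 for Zfp658 to 3.08 for 1700001K19Rikl.

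Sterol synthesis was lowered almost throughout. Of 20 members tested (25 on the list), 16 fell and 1 rose in injured against sham microglia, with a median difference of -0.97, against -0.06 over all genes. After cyclic loess 15 fell and 1 rose (median -0.73), and against the contralateral hemisphere 8 fell and 0 rose (median -0.27). Idi1, which isomerises the isoprenoid unit from which sterols are built, was at 5.39, 4.64 and 4.79 on the injured arrays, at 6.96, 6.20 and 6.44 on the contralateral arrays and at 8.23, 8.23 and 8.14 on the sham arrays. Msmo1, which removes methyl groups from the sterol ring, was at 6.14, 5.79 and 5.77 in injured, 7.59, 6.79 and 7.16 in contralateral and 8.69, 8.75 and 8.89 in sham microglia. None of these 3 groups overlapped for either gene, and the contralateral arrays again lay in the middle. Idi1 fell by 3.26 ± 0.21 (adjusted p = 3.7e-13) and Msmo1 by 2.88 ± 0.19 (adjusted p = 7.3e-13), and against the contralateral hemisphere by 1.59 for Idi1 and 1.28 for Msmo1.

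The regulators of the pathway moved the same way. Some of the genes from here on were chosen after their values were seen, beside those the naming rule gave. Srebf2, the transcription factor that drives sterol synthesis, was at 7.07, 6.68 and 6.87 on the injured arrays and at 8.05, 8.0 and 8.34 on the sham arrays, and fell by 1.26 ± 0.13, or by 0.83 after cyclic loess. Insig1, which holds that factor's precursor in the endoplasmic reticulum and is itself one of its targets, was at 9.07, 8.80 and 8.70 in injured and at 10.60, 10.53 and 10.64 in sham microglia, and fell by 1.74 ± 0.11. The groups did not overlap for either. Of the enzymes, Fdft1 (squalene synthase) fell by 1.89, Cyp51 (lanosterol demethylase) by 1.84 and Sqle (squalene epoxidase) by 1.45. Mvk (mevalonate kinase) was the exception, 0.19 ± 0.08 higher (adjusted p = 0.047). It was not called against the contralateral hemisphere, nor against sham when any 1 of the 6 arrays was left out, with differences of 0.16 (without injured replicate 3) to 0.21. After cyclic loess Mvk was 0.41 higher than in sham (adjusted p = 8.9e-05). In fatty acid synthesis and desaturation 8 of 15 members fell and 2 rose, 6 and 3 after cyclic loess, and 5 and 1 against the contralateral hemisphere. Acsl3, which activates long-chain fatty acids, fell by 1.85 and Fads1, a desaturase, rose by 0.90.

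**Figure D3:**
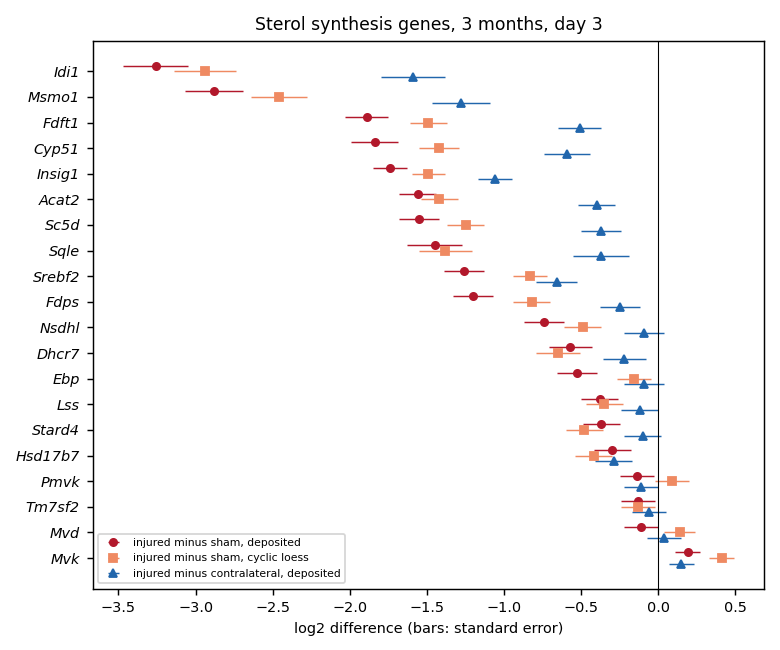
Log2 difference (x, with standard error bars) of the 20 sterol synthesis genes tested (y) for injured minus sham with deposited values, the same after cyclic loess, and injured minus contralateral. The deposited differences reach -3.26 for Idi1, and the differences from the contralateral hemisphere are smaller for nearly all members.

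Genes that carry, store or export lipid moved upward in the same microglia. Of 25 members tested, 13 rose and 5 fell (median 0.27), 13 rose and 3 fell after cyclic loess, and 10 rose and 1 fell against the contralateral hemisphere. Abca1, which exports cholesterol to apolipoproteins, was at 9.05, 9.06 and 8.90 on the injured arrays and at 7.94, 7.78 and 7.93 on the sham arrays. Plin2, which coats lipid droplets, was at 9.52, 9.39 and 8.68 in injured and at 7.64, 7.78 and 7.93 in sham microglia. Both sat clear of sham, with differences of 1.12 ± 0.08 for Abca1 and 1.41 ± 0.14 for Plin2. Soat1, which esterifies cholesterol for storage, rose by 0.88 ± 0.11, and Fabp5, a fatty acid carrier, by 1.96 ± 0.17. Their differences from the contralateral hemisphere were of like size, at 1.09 for Abca1, 1.65 for Plin2, 1.22 for Soat1 and 1.83 for Fabp5. Among the members that fell were Mylip (a ligase that marks the LDL receptor for breakdown, -0.72) and Lipa (the lysosomal cholesterol esterase, -0.69). After cyclic loess these differences were -0.36 for Mylip and -0.38 for Lipa, and Lipa was not called against the contralateral hemisphere.

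The homeostatic programme of microglia was lower almost throughout. Of 27 members tested (35 on the list), 22 fell and 1 rose, with a median difference of -0.80. After cyclic loess 21 fell and 1 rose (median -0.53), and against the contralateral hemisphere 20 fell and 1 rose (median -0.57). Rapgef5, an exchange factor for Rap proteins, was at 8.24, 8.31 and 8.29 on the injured arrays and at 9.98, 9.90 and 10.05 on the sham arrays. P2ry13, a receptor for ADP, was at 9.0, 9.10 and 9.10 in injured and at 10.78, 10.59 and 10.69 in sham microglia. Both showed narrow groups far apart, with differences of -1.70 ± 0.08 for Rapgef5 (adjusted p = 1.2e-15) and -1.62 ± 0.14 for P2ry13 (adjusted p = 4.5e-11).

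Genes that define microglia were among those that fell. Sall1, a transcription factor of microglial identity, was at 9.43, 9.60 and 9.85 on the injured arrays and at 10.80, 10.83 and 10.88 on the sham arrays (difference -1.21 ± 0.09). P2ry12, the ADP receptor that steers microglial processes, was at 10.83, 11.12 and 11.24 in injured and at 12.06, 12.02 and 12.08 in sham microglia (-0.99 ± 0.11). Tmem119, a surface marker, was at 7.34, 6.97 and 7.79 in injured, at 9.01, 8.55 and 9.09 in contralateral and at 8.14, 8.22 and 8.46 in sham microglia. Its contralateral arrays lay above sham, so its fall was 0.90 ± 0.18 against sham (0.50 after cyclic loess) and 1.52 against the contralateral hemisphere. In such bulk samples, fewer microglia in the sample and less of these transcripts per microglia cannot be told apart. Fcrl2, listed under its older name Fcrls and a receptor-like marker of mouse microglia, was the 1 member that rose: it was at 10.40, 10.55 and 10.72 in injured and at 8.52, 8.39 and 8.33 in sham microglia, a rise of 2.14 ± 0.13.

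Genes of the state called disease-associated, described in mouse microglia around plaques and dying neurons, moved the other way for the larger part. Of 31 members tested, 18 rose and 6 fell (median 0.48), or 21 and 6 after cyclic loess, and 18 and 3 against the contralateral hemisphere. Besides Spp1, Gpnmb, Lgals3 and Apoc1, the receptor for fungal sugars Clec7a was at 9.23, 8.79 and 7.85 on the injured arrays and at 6.06, 6.27 and 5.87 on the sham arrays, a rise of 2.56 ± 0.22. Igf1, a growth factor, was at 9.32, 9.63 and 9.65 in injured and at 7.98, 8.01 and 8.02 in sham microglia, a rise of 1.53 ± 0.13. Neither overlapped with sham. Trem2, the lipid-sensing receptor on which that state depends in mice, fell by 0.44, and by 0.28 after cyclic loess. Cd9, a tetraspanin, fell by 0.69 and Ctsl, a lysosomal protease, by 0.66. After cyclic loess the falls were 0.39 for Cd9 and 0.54 for Ctsl, and Cd9 was not called against the contralateral hemisphere.

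**Figure D4:**
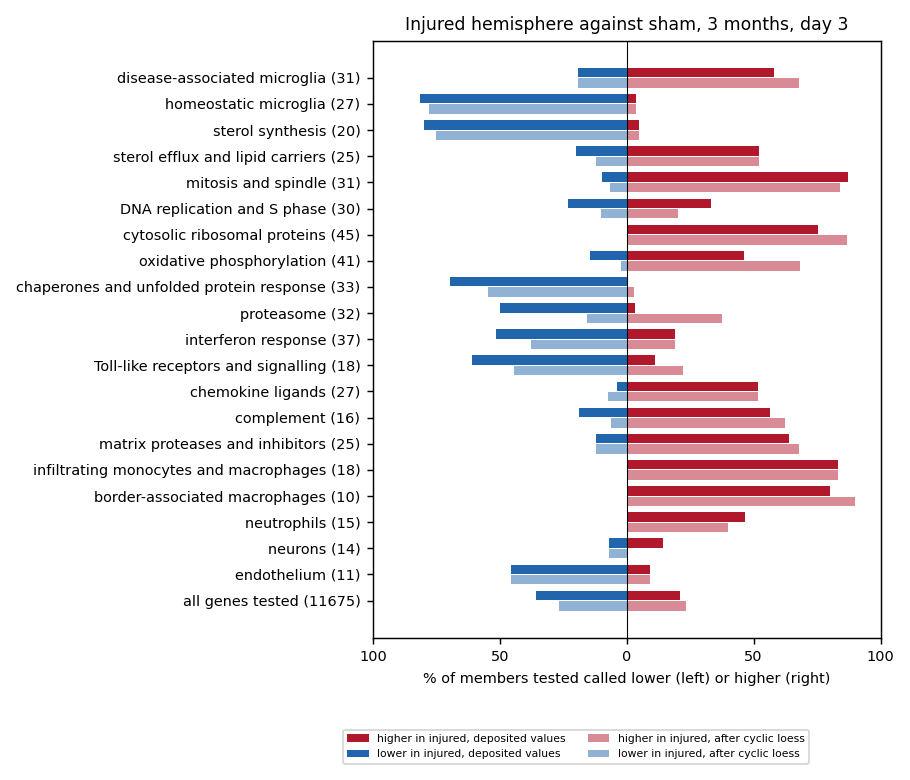
Share of the tested members (x, percent, number tested in brackets) called lower (left) or higher (right) in injured than in sham microglia for 20 gene lists and all genes, with deposited values in full colour and after cyclic loess in pale colour. Homeostatic and sterol synthesis genes lie almost wholly on the left in both, and the proteasome turns from left to right between them.

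Mitotic genes were higher in the injured hemisphere, and DNA replication genes were not uniformly so. Of 31 mitosis and spindle genes tested, 27 rose and 3 fell (median 0.92), 26 and 2 after cyclic loess, and 24 and 0 against the contralateral hemisphere. Top2a, which untangles DNA before chromosomes part, was at 6.51, 6.52 and 6.63 on the injured arrays, at 5.47, 5.69 and 5.59 on the contralateral arrays and at 4.75, 4.31 and 4.50 on the sham arrays. Ccnb2, a mitotic cyclin, was at 7.10, 7.51 and 7.21 in injured, at 5.94, 6.09 and 6.25 in contralateral and at 5.85, 5.56 and 5.40 in sham microglia. The kinase gene Plk1 was at 6.11, 6.46 and 6.35 in injured, at 5.41, 5.06 and 5.45 in contralateral and at 4.77, 4.72 and 4.98 in sham microglia. In all 3 genes the contralateral arrays lay between the others without overlapping them. The rise over sham was 2.03 ± 0.20 for Top2a, 1.67 ± 0.17 for Ccnb2 and 1.48 ± 0.13 for Plk1, and Tpx2, a spindle assembly factor, rose by 1.95 ± 0.14. The kinases Ttk and Aurka fell, by 0.95 for Ttk and 0.80 for Aurka (0.92 and 0.39 after cyclic loess), and neither was called against the contralateral hemisphere.

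Promoters of mitotic genes are known for a pairing of CCAAT boxes, bound by the factor NF-Y, with a CHR element (TTTGAA), through which the DREAM and MuvB complexes time them. Of 26 mitosis genes with a promoter in the table (250 bases before to 50 after the start, RefSeq, GRCr8), 20 (76.9%) held CCAAT and 19 (73.1%) held TTTGAA on either strand. Over all 27457 promoters the shares were 37.7% and 18.1%. The 3 promoters of the genes described above are shown to let these letters be seen, with CCAAT and TTTGAA, or ATTGG and TTCAAA where the match is on the other strand, in capitals. They lie at chr10:84473044-84473343 (minus strand) for Top2a, chr8:79981609-79981908 (minus strand) for Ccnb2 and chr1:186147408-186147707 (plus strand) for Plk1.
Top2a: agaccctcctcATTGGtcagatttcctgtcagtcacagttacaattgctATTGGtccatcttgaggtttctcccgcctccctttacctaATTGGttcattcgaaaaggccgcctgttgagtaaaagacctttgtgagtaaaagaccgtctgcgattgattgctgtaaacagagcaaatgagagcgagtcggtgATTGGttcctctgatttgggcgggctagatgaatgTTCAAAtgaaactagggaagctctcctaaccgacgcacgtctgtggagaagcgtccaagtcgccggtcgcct
Ccnb2: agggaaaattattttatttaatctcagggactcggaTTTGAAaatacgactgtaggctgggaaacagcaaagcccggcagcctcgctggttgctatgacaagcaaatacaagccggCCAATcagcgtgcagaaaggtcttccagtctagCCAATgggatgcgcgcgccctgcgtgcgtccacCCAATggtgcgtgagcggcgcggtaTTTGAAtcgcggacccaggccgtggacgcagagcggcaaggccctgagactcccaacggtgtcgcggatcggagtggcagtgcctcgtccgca
Plk1: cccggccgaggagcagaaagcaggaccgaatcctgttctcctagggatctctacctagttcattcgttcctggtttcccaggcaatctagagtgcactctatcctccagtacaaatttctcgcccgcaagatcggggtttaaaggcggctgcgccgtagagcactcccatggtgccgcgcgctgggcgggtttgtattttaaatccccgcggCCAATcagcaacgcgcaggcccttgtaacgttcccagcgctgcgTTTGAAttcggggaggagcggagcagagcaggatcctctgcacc
Top2a holds 4 CCAAT and 1 TTTGAA, all on the opposite strand, Ccnb2 holds 3 and 2, and Plk1 1 and 1. Such matches are letters in a window and are not evidence of binding in these microglia.

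Among 30 DNA replication and S phase genes tested, 10 rose and 7 fell (median 0.08), which after cyclic loess became 6 and 3 and against the contralateral hemisphere 5 and 1. Rrm2, the subunit of ribonucleotide reductase that limits DNA precursor supply, was at 6.81, 6.54 and 6.22 on the injured arrays and at 4.72, 4.54 and 4.47 on the sham arrays, a rise of 1.95 ± 0.19. Pcna, the sliding clamp of DNA polymerases, was at 9.92, 9.77 and 9.91 in injured and at 11.29, 11.08 and 10.87 in sham microglia, a fall of 1.21 ± 0.10. Both were called the same way after cyclic loess and against the contralateral hemisphere, by 1.45 for Rrm2 and -0.61 for Pcna, although they serve the same process. Prim1, a primase subunit, fell by 0.69 against sham and was not called against the contralateral hemisphere. The motif TTTCCCGC, one form of the E2F site, stood in 4 of 26 S phase promoters (15.4%), against 1.03% of all promoters and 1.83% of those of tested genes. It stood in 1 of 9 promoters of members called higher and 1 of 6 of members called lower.

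Cytokines of the interleukin-1 system split. Il1b (interleukin-1 beta) was at 10.31, 10.66 and 9.09 on the injured arrays and at 8.39, 8.35 and 8.20 on the sham arrays, a rise of 1.70 ± 0.25. Its antagonist Il1rn rose by 3.29 and Il1r2, the decoy receptor, by 1.41. Il1a (interleukin-1 alpha) was at 9.43, 9.93 and 10.04 in injured and at 10.88, 10.69 and 10.70 in sham microglia, a fall of 0.96 ± 0.14. Il18 fell by 1.14 and the caspase gene Casp4, which acts in the non-canonical inflammasome, by 1.23, and Il1a, Il18 and Casp4 were also called lower after cyclic loess and against the contralateral hemisphere. Of 29 cytokine genes tested, 8 rose and 13 fell (7 and 9 after cyclic loess, 5 and 8 against the contralateral hemisphere). Without injured replicate 2, 5 cytokine genes were called higher.

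Receptors for microbial and cell-damage signals were lower for the larger part against sham with deposited values, and not against the contralateral hemisphere. With deposited values they looked like other genes of their level. The list had a median sham level of 8.21, and in the highest level bin 356 of 2335 genes were called higher and 1418 lower. Of 18 members tested, 2 rose and 11 fell, 4 and 8 after cyclic loess, and 3 and 3 against the contralateral hemisphere. Tlr4, the lipopolysaccharide receptor, was at 7.35, 7.29 and 7.37 on the injured arrays, at 7.64, 7.80 and 7.63 on the contralateral arrays and at 8.66, 8.57 and 8.54 on the sham arrays. Tlr3, the receptor for double-stranded RNA, was at 7.83, 7.82 and 8.30 in injured, at 8.67, 8.30 and 8.40 in contralateral and at 9.46, 9.41 and 9.28 in sham microglia. The contralateral arrays of Tlr4 lay close to the injured ones. The falls against sham were 1.26 ± 0.09 for Tlr4 and 1.40 ± 0.13 for Tlr3, and against the contralateral hemisphere 0.36 for Tlr4 and 0.47 for Tlr3, all called. After cyclic loess the fall of Tlr4 against sham was 0.83.

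Chemokine ligands were mostly higher: of 27 tested, 14 rose and 1 fell, 14 and 2 after cyclic loess, and 9 and 1 against the contralateral hemisphere. Ccl6, a chemokine of myeloid cells, rose by 1.42 and Cxcl1 by 2.91, while Ccl4, already at 12.67 in sham microglia, fell by 0.49. Of 16 complement genes, 9 rose and 3 fell (10 and 1, then 6 and 2). Cfd (factor D, a protease of the alternative pathway) was at 7.86, 7.35 and 7.23 on the injured arrays and at 5.08, 5.50 and 5.19 on the sham arrays, a rise of 2.22 ± 0.24. C3, the central component, was at 8.80, 8.76 and 8.75 in injured and at 9.61, 9.73 and 9.86 in sham microglia, a fall of 0.96 ± 0.10. Both lay clear of sham, in opposite directions. Vsig4, a complement receptor of macrophages, was at or below the 30th percentile on every sham array and at least 1.72 log2 units higher in injured microglia.

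Interferon-response genes did not share a direction between the comparisons. Of 37 tested, 7 rose and 19 fell against sham (median -0.36), 7 and 14 after cyclic loess (median -0.11), and 11 rose and 1 fell against the contralateral hemisphere (median 0.20). Samd9l, an antiviral factor, was at 7.51, 7.23 and 7.51 on the injured arrays, at 7.80, 7.59 and 7.64 on the contralateral arrays and at 9.07, 8.95 and 8.67 on the sham arrays. Its injured and contralateral arrays lay close together, 1.22 to 1.48 below sham by their means. Gbp2, a guanylate-binding protein induced by interferon gamma, rose by 0.68 against sham (1.04 after cyclic loess) and 0.85 against the contralateral hemisphere. The interferon-stimulated response element (both strands) stood in 17 of 26 promoters of the list (65.4%), against 3.77% of all. It stood in 4 of 6 promoters of members called higher and 7 of 12 of members called lower. Sterol response elements of the form TCACNCCAC stood in 0 of 16 sterol synthesis promoters, against 1.13% of all, which says only that these letters are not in that window.

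MHC class II genes were uneven over the injured arrays. The list averaged 9.01, 8.30 and 7.96 on the injured arrays and 8.10, 8.13 and 7.97 on the sham arrays. For 3 members every injured array lay above every sham array. Of 17 members, 8 rose and 3 fell (8 and 2 after cyclic loess, 8 and 3 against the contralateral hemisphere). RT1-Da was at 11.25, 9.12 and 7.06 on the injured arrays and at 7.66, 8.03 and 6.85 on the sham arrays, and RT1-Ba at 9.13, 7.21 and 6.06 against 6.47, 6.51 and 5.57. Both encode chains that present peptides to helper T cells. The groups overlapped, since injured replicate 3 lay within the sham range and replicate 1 far above it. The rises were 1.63 ± 0.57 for RT1-Da (adjusted p = 0.015) and 1.29 ± 0.40 for RT1-Ba (adjusted p = 0.008). Without injured replicate 1 the difference was 0.57 for RT1-Da (adjusted p = 0.30) and 0.45 for RT1-Ba (adjusted p = 0.20), and 3 members of the list were called higher and 5 lower. Without sham replicate 3 it was 1.30 for RT1-Da (adjusted p = 0.084) and 0.98 for RT1-Ba (adjusted p = 0.064), and 5 members were called higher.

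Most cytosolic ribosomal protein genes rose. Respiratory chain genes rose for the larger part after cyclic loess and against the contralateral hemisphere, but not against sham with deposited values. Of 45 cytosolic ribosomal protein genes tested, 34 rose and 0 fell against sham, 39 and 0 after cyclic loess, and 42 and 0 against the contralateral hemisphere. Rpsa, of the small subunit, was at 10.93, 10.54 and 10.69 on the injured arrays and at 9.73, 9.77 and 9.63 on the sham arrays, a rise of 1.01 ± 0.14. Rplp0, of the large subunit, rose by 0.95 ± 0.08. Probe sets of ribosomal protein genes can share sequence with their many pseudogenes. Of 41 oxidative phosphorylation genes, 19 rose and 6 fell against sham, 28 and 1 after cyclic loess and 38 and 0 against the contralateral hemisphere, with 12 higher against sham when injured replicate 1 was left out. They were led by Cox4i1, a subunit of cytochrome oxidase, which rose by 1.04 ± 0.09. In glycolysis 12 of 32 rose and 10 fell (17 and 8, then 13 and 4). Pfkfb3, which makes the activator of glycolysis, rose by 1.75 ± 0.23, and Pdk1, which blocks pyruvate entry into mitochondria, fell by 1.08 ± 0.08, or by 0.67 after cyclic loess.

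Directions of the proteasome and of mitochondrial ribosomal proteins depended on the scaling. Of 32 proteasome genes, 1 rose and 16 fell with deposited values, whereas 12 rose and 5 fell after cyclic loess, and 11 rose and 0 fell against the contralateral hemisphere. Of 48 mitochondrial ribosomal protein genes, 2 rose and 17 fell with deposited values, 14 rose and 11 fell after cyclic loess, and 18 rose and 0 fell against the contralateral hemisphere. No direction against sham is given for these lists or for the lysosome. The lysosome list had a median sham level of 8.94. In the highest level bin, 356 of 2335 genes were called higher and 1418 lower with deposited values. Of 40 lysosomal genes 11 rose and 16 fell with deposited values, shares near those of all genes but with fewer lower than in that bin. After cyclic loess 19 lysosomal genes rose and 10 fell, and against the contralateral hemisphere 11 rose and 8 fell. Their member Cd68, a glycoprotein of macrophage lysosomes, was at 10.93, 10.67 and 10.66 on the injured arrays and at 9.31, 9.26 and 9.03 on the sham arrays, a rise of 1.55 ± 0.12.

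Chaperones fell in each of the comparisons. Of 33 genes of protein folding and its stress response, 0 rose and 23 fell (median -0.55), 1 and 18 after cyclic loess, and 0 and 15 against the contralateral hemisphere. Hspd1, the mitochondrial chaperonin, was at 9.71, 9.50 and 9.34 on the injured arrays, at 10.60, 10.41 and 10.35 on the contralateral arrays and at 11.27, 11.38 and 11.13 on the sham arrays. Ddit3, the stress factor CHOP, was at 8.88, 8.94 and 9.09 in injured, at 10.12, 9.85 and 9.97 in contralateral and at 10.52, 10.50 and 10.48 in sham microglia. Neither gene overlapped between any of the 3 groups. Hspd1 fell by 1.74 ± 0.11 and Ddit3 by 1.53 ± 0.11 against sham. The immediate early genes, which respond within minutes, had 6 of 29 higher and 15 lower, 10 and 10 after cyclic loess, and 6 and 11 against the contralateral hemisphere. Klf2, a factor that restrains inflammation, fell by 1.34, and Dusp2, a phosphatase of immune cells, rose by 1.85.

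Tissue-remodelling genes were raised. Of 25 matrix proteases, their inhibitors and matrix proteins, 16 rose and 3 fell (17 and 3, then 11 and 4). Timp1, an inhibitor of metalloproteases, was at 8.78, 8.72 and 9.09 on the injured arrays and at 6.13, 6.25 and 6.23 on the sham arrays, a rise of 2.66 ± 0.15. Thbs1 (thrombospondin-1) was at 8.83, 6.75 and 5.63 in injured and at 4.59, 4.71 and 4.79 in sham microglia, a rise of 2.38 ± 0.39. The injured arrays were even for Timp1 and spread over 3 log2 units for Thbs1. Of 29 growth factor genes and receptors, 12 rose and 5 fell (13 and 6, then 5 and 4). Csf2ra, a receptor chain for GM-CSF, rose by 2.06 ± 0.11, and Hbegf, an epidermal growth factor family member, fell by 1.13 ± 0.17. In TGF-beta signalling, which maintains microglial identity, 2 of 19 rose and 10 fell (3 and 7, then 0 and 6). With deposited values this list was not lower than other genes of its level. Its median sham level was 8.45, and in the highest level bin 1418 of 2335 genes were called lower. Smad7, the pathway's induced inhibitor, fell by 1.45, and Id1, a direct target, by 1.34. Of 31 iron and Nrf2 genes 6 rose and 12 fell (7 and 7, then 6 and 3), with 3 higher without injured replicate 1 and 7 lower without sham replicate 1. Among them Tfrc, the transferrin receptor, was at 6.08, 5.60 and 5.30 in injured and at 7.54, 7.60 and 7.48 in sham microglia.

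The remaining lists were smaller or less uniform. Of 16 alternative activation genes 11 rose and 2 fell (11 and 2, then 10 and 2), with a rise of 2.71 for Mrc1, while Socs2, a feedback inhibitor of cytokine signalling, fell by 1.74. Of 15 genes of the phagocyte oxidase and reactive oxygen 8 rose and 2 fell (12 and 1, then 10 and 0), led by Nos2, the inducible nitric oxide synthase, at 1.42. Of 17 MHC class I genes 1 rose and 4 fell (7 and 2, then 3 and 1).

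The labelled cell type was checked against its markers. The 19 microglia and macrophage markers on the array averaged 10.47 to 10.61 on the injured arrays and 10.72 to 10.74 on the sham arrays, and none was at or below the 30th percentile on all arrays of a group. Of the 19, 4 rose (among them Cd68) and 11 fell (among them Sall1 and P2ry12), or 4 and 8 after cyclic loess. The 19 neuron markers averaged 4.53 to 4.57 on the injured and 4.44 to 4.63 on the sham arrays, the 14 astrocyte markers 4.86 to 4.91 and 4.72 to 4.90, and the 15 oligodendrocyte markers 5.27 to 5.40 and 5.29 to 5.49. Of the neuron markers 6 were at or below the 30th percentile on all injured arrays and 5 on all sham arrays. Of those tested, 2 of 14 neuron markers rose and 1 fell (0 and 1 after cyclic loess, 0 and 0 against the contralateral hemisphere). Of 12 astrocyte markers 4 rose and 0 fell (3 and 1, then 1 and 0). Of 12 oligodendrocyte markers 4 rose and 3 fell (2 and 2, then 0 and 1). Of 13 markers of pericytes, smooth muscle and fibroblasts 3 rose and 1 fell (3 and 2, then 0 and 0). The counts with deposited values moved with single arrays. Without sham replicate 1, 1 neuron, 2 astrocyte, 1 oligodendrocyte and 1 pericyte marker were called higher, and without sham replicate 3, 5 neuron markers were. Without injured replicate 2 there were 2 astrocyte and 1 oligodendrocyte markers called higher, without injured replicate 3 there was 1 pericyte marker, and without injured replicate 1 there were 4 neuron markers. Without sham replicate 2 there were 2 oligodendrocyte markers. The 14 endothelial markers averaged 5.33 to 5.46 on the injured and 5.57 to 5.75 on the sham arrays. Of 11 tested, 1 was higher and 5 were lower (1 and 5, then 1 and 4).

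Markers of other leukocytes moved with the comparison. Of 18 infiltrating monocyte and macrophage markers tested, 15 rose and 0 fell (15 and 0 after cyclic loess, 17 and 0 against the contralateral hemisphere), and the 19 on the array averaged 6.44 to 7.73 on the injured arrays and 5.68 to 5.78 on the sham arrays. Anxa2, an annexin, was at 8.09, 7.62 and 6.87 in injured and at 4.97, 5.42 and 5.34 in sham microglia, and the calcium-binding protein gene S100a6 rose by 2.46 ± 0.28. Ccr2, the chemokine receptor that defines inflammatory monocytes, averaged 5.64 ± 0.89 in injured and 5.28 ± 0.04 in sham microglia (SD, n = 3 each) and did not pass the test (adjusted p = 0.17). Its difference was -0.15 without injured replicate 1 and 0.67 without injured replicate 3 (adjusted p = 0.0096). Of 10 border macrophage markers 8 rose and 0 fell, and their average was 7.22 to 7.75 on the injured and 5.90 to 6.0 on the sham arrays. Mrc1, the mannose receptor, was at 8.45, 7.81 and 7.52 in injured and at 5.18, 5.34 and 5.11 in sham microglia, and Cd163, the haemoglobin scavenger receptor, at 6.82, 6.88 and 6.14 in injured and 4.36, 4.40 and 4.23 in sham microglia. Folr2, a folate receptor, rose by 2.64 ± 0.25. Many of these genes are also raised in microglia when they are activated, and what share of the results above these cells carry was not tested.

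Neutrophil markers were uneven. Of 15 tested, 7 rose and 0 fell (6 and 0 after cyclic loess, 5 and 0 against the contralateral hemisphere), and their average over the array's 15 was 5.64 to 6.14 on the injured and 5.20 to 5.84 on the sham arrays, which overlap. S100a8, a chain of the neutrophil protein calprotectin, was at 10.61, 11.09 and 9.03 on the injured arrays, at 6.82, 6.58 and 8.40 on the contralateral arrays and at 9.02, 9.40 and 7.34 on the sham arrays. S100a9, its partner, was at 10.94, 11.43 and 9.48 in injured, at 7.01, 7.00 and 8.78 in contralateral and at 9.38, 9.81 and 7.63 in sham microglia. Sham replicates 1 and 2 lay above every contralateral array, and injured replicate 3 lay within the sham range for both genes. The rises, 1.66 ± 0.51 for S100a8 and 1.67 ± 0.52 for S100a9, were not called without injured replicate 2 (1.23 and 1.27) or without sham replicate 3 (1.03 and 1.02). Cxcr2, the receptor for Cxcl1 on neutrophils, was called higher, with injured arrays spread from 4.23 to 6.32. It was at or below the 30th percentile on every sham array, so the size of its rise is not given. Camp, a granule peptide, averaged 5.64 in injured and 6.58 in sham microglia (adjusted p = 0.054). Camp was called lower under 6 of 16 alternatives, among them the 6 compared arrays alone (adjusted p = 0.0055). Without sham replicate 3 it was lower by 1.31 (adjusted p = 0.015), and 2 members of the list were called lower. Of 13 T cell markers 6 rose and 3 fell (6 and 2 after cyclic loess, 1 and 2 against the contralateral hemisphere). Cd8a rose by 0.95 and Il7r fell by 1.95. Cd8b and Cd3e were called higher, but both were at or below the 30th percentile on every sham array. Cd8b was at least 0.39 log2 units higher in injured microglia and was not called against the contralateral hemisphere. Cd3e was at 4.40 to 4.64 on the injured arrays. Of 6 B and NK cell markers 2 rose and 0 fell (3 and 0, then 0 and 0). Among 10 dendritic cell markers 3 rose and 1 fell (5 and 0, then 1 and 0). Among 5 red cell markers 1 rose and 0 fell (0 and 0 in both).

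The same injured against sham comparison at 12 months, which shares no array with this one and lies within 1 code number, called 2655 genes (22.7%) higher and 1673 (14.3%) lower. Of the 2435 genes higher at 3 months, 884 (36.3%) were higher and 140 (5.75%) lower at 12 months. Of the 4191 lower at 3 months, 1128 (26.9%) were lower and 754 (18%) higher. The difference between the ages was itself called for 6011 genes (51.5%) with deposited values and for 3896 (33.4%) after cyclic loess. The list counts at 12 months were 2 higher and 22 lower for homeostatic genes, 0 and 10 for sterol synthesis, 4 and 15 for chaperones and 43 and 0 for cytosolic ribosomal proteins. Not all lists kept their 3-month direction. Proteasome genes had 31 higher and 0 lower at 12 months, against 1 and 16 at 3 months with deposited values. Mitochondrial ribosomal proteins had 34 and 0, against 2 and 17, and interferon-response genes 11 and 3, against 7 and 19.

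Cell cycle genes differed between the ages. Of the 30 S phase genes, 26 rose and 1 fell at 12 months, against 10 and 7 at 3 months, and of the 31 mitosis genes 28 rose and 1 fell, against 27 and 3. The median differences were 1.12 at 12 months and 0.08 at 3 months for S phase, and 2.63 at 12 months and 0.92 at 3 months for mitosis. Rrm2 was at 8.98, 8.74 and 9.13 on the injured and at 4.56, 4.48 and 4.51 on the sham arrays at 12 months, a rise of 4.44, against 1.95 at 3 months. The difference of the rises was 2.49 for Rrm2 (adjusted p = 3.3e-08), and 2.58 after cyclic loess. Top2a was at 8.84, 8.60 and 8.79 on the injured and at 4.73, 4.88 and 4.95 on the sham arrays at 12 months. Its rise was 3.89 at 12 months and 2.03 at 3 months (difference 1.86, adjusted p = 4.3e-06). Pcna fell at both ages, by 0.39 at 12 months and by 1.21 at 3 months.

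**Figure D5:**
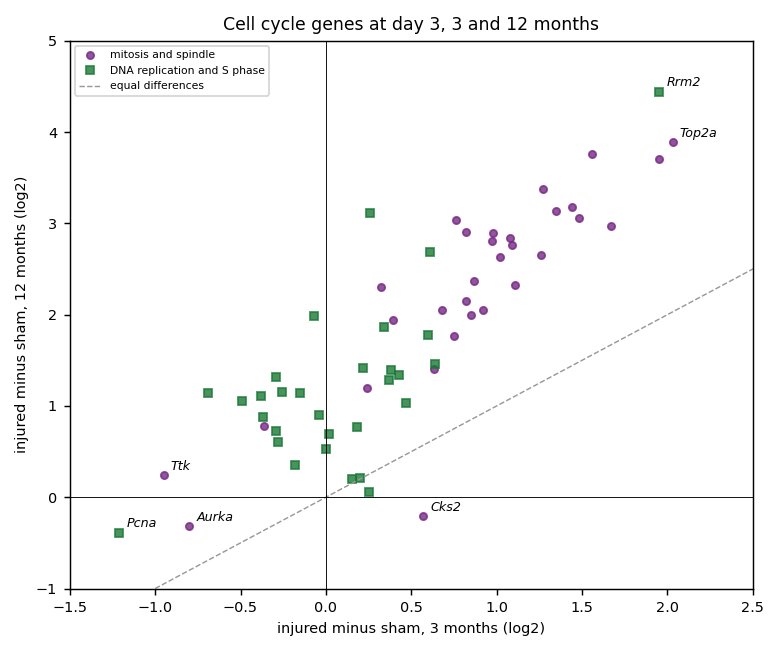
Injured minus sham difference (log2) of mitosis genes (circles) and S phase genes (squares) at 12 months (y) against 3 months (x), with a dashed line where the 2 are equal. Nearly all points lie above the line, and Cks2 lies below it.

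Other genes ran the opposite way. Vegfa, Il1b and RT1-Ba were named as among the 2 highest called members of their lists at 3 months, which favours a smaller rise at 12 months. Vegfa, the angiogenic growth factor, was at 5.28, 5.14 and 5.61 on the injured and at 5.63, 5.12 and 5.13 on the sham arrays at 12 months, where the groups overlapped. At 3 months it was at 7.92, 6.82 and 6.21 in injured and at 5.14, 4.84 and 5.13 in sham microglia, with a rise of 1.95 ± 0.23. The difference between the ages was -1.90 for Vegfa (adjusted p = 2.2e-05), and -1.86 after cyclic loess. Il1b rose by 0.82 at 12 months and by 1.70 at 3 months, a difference of -0.89 (adjusted p = 0.036). RT1-Ba was at 6.05, 6.14 and 6.39 on the injured and at 6.49, 6.10 and 6.74 on the sham arrays at 12 months, and the difference of its changes was -1.54 (adjusted p = 0.026), where the 3-month rise rested on the uneven injured arrays given above. Apoe, the main apolipoprotein of the brain, did not pass the test at 12 months (0.00) and rose by 0.50 at 3 months, a difference of -0.50 (adjusted p = 0.0016).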

How the data were processed

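The deposited values were log2 expression levels of 29214 probe sets on 30 arrays (Affymetrix Rat Gene 1.0 ST), which the authors computed by RMA in Affymetrix Expression Console (versions not given), per the submitters' processing notes. From 50 ng of RNA with integrity numbers above 7.0, cDNA was amplified with a NuGEN kit, per the labels' protocols. Probe sets were named through the platform annotation, with symbols updated from RefSeq genes of GRCr8. Only the 15310 probe sets with 1 symbol could be tested; 323 carried several, and 13581 had no entry there. Probe sets above the 30th percentile of their array (4.07 to 4.35) on at least 3 arrays were kept, and each gene was tested on its probe set with the highest mean, which left 11675 genes. A group with all 3 arrays at or below that percentile has only a bound. No pair of arrays was identical. Depth has no meaning for arrays, and their number limits the precision.

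Group means were compared with limma 3.58.1 (R 4.3.3) in 1 model of 10 groups over 30 arrays, which lends the spread of all groups to the compared 6, with Benjamini-Hochberg adjustment over all genes and a threshold of 0.05. All adjusted p-values are limma's and two-sided, and errors after ± are its standard errors unless given as SD. The script was tested on simulated data. Replicate numbers gave correlations of 0.087, 0.029 and 0.092 between same-numbered injured and sham arrays, so they were not taken as pairs.

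The comparison and the 41 gene lists were chosen with earlier results of these data known. Named genes are the 12 highest and 12 lowest called in the same direction under deposited, cyclic loess and quantile scaling without overlap, and the 2 highest and 2 lowest called members of each list. Other named genes were chosen after their values were seen. Where a count in brackets has no label, the first pair is after cyclic loess and the second against the contralateral hemisphere.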

Additional observations from a re-analysis of the deposited data

Results flagged for a closer look

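The injured minus sham difference at day 3 differed between 12 and 3 months, in a test of the difference itself by limma, with deposited values and in the same direction after cyclic loess, for 33 of the 110 genes named above. Over all genes 51.5% passed that test with deposited values and 33.4% after cyclic loess. The 12-month arrays share 1 code number, and the 3-month groups do not, so that age and number cannot be told apart. Genes named as the highest or lowest of all or of a list were chosen on 3-month differences that also enter this test. That choice favours a smaller change at 12 months than at 3 months. Differences are given as 12 months minus 3 months.

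The cell cycle genes stood higher at 12 months by 2.49 (Rrm2), 1.86 (Top2a), 1.84 (Prim1), 1.75 (Tpx2), 1.58 (Plk1), 1.30 (Ccnb2), 1.19 (Ttk) and 0.82 (Pcna, 0.45 after cyclic loess), and Cks2 stood lower by -0.77. Prim1 rose by 1.14 at 12 months and fell by 0.69 at 3 months.

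Sterol synthesis genes fell less at 12 months, with differences of 1.58 (Idi1), 1.37 (Msmo1), 1.11 (Sqle) and 0.94 (Fdft1), of which Msmo1 was at 0.90 and Fdft1 at 0.50 after cyclic loess. Differences of the same sign were 1.81 for Fam72a, 1.63 for Slc16a1, 1.58 for Med21, 1.37 for N5 (0.87 after cyclic loess) and 1.07 for 1700001K19Rikl. These 5, like Idi1 and Msmo1, were named for their low 3-month values, which favours a smaller fall at 12 months. Il6, Slc43a3, Alox5, Dpp6 and Zfp658, named by the same rule, did not pass the test after cyclic loess. The difference was also positive for Tfrc (1.34), Pdk1 (1.04), Samd9l (1.04), Id1 (0.99), Hspd1 (0.92), Tlr4 (0.83) and Rapgef5 (0.80). After cyclic loess it was smaller for Pdk1 (0.53), Samd9l (0.53), Hspd1 (0.56), Tlr4 (0.32) and Rapgef5 (0.35). Cd9 rose by 0.42 at 12 months and fell by 0.69 at 3 months, a difference of 1.11 (0.66 after cyclic loess). Anxa2 rose by 3.67 at 12 months and by 2.28 at 3 months, a difference of 1.39.

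The difference was negative for Vegfa (-1.90), RT1-Ba (-1.54), Cxcl1 (-1.27), Il1b (-0.89, and -1.39 after cyclic loess), Cd3e (-0.66) and Apoe (-0.50). For Cd3e every 3-month sham array was at or below the 30th percentile. Cxcl1 rose by 1.64 at 12 months and by 2.91 at 3 months. No outlier test was made in groups of 3 arrays.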

How the results depend on the processing

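Over 16 alternatives the number of genes called stayed between 5589 and 7003 (deposited values 6626). The genes called at least 2-fold apart numbered 879 and became 560 after cyclic loess, and 860 to 932 when 1 array was left out. The age difference was called for 6011 genes, 3896 after cyclic loess and 3796 after quantile scaling. The higher genes made up 36.7% of the calls with deposited values, 46.7% after cyclic loess, 45.5% after quantile scaling and 28.2% with arrays centred on their medians. Centring moved the median difference from -0.06 to -0.12. In the 6 compared arrays with the replicate number as a block, 6393 genes were called, and with the animal as a random block over 30 arrays 6618. Of 110 named genes, 103 kept their direction and their side of the threshold under all 16 alternatives. 5 called genes lost the call under at least 1: Mvk, RT1-Ba, RT1-Da, S100a8 and S100a9. RT1-Ba (adjusted p = 0.071) and RT1-Da (adjusted p = 0.082) lost it in a fit of the 6 arrays alone. Camp, not called with deposited values, was called lower under 6. Ccr2, not called, was at -0.15 without injured replicate 1 and at 0.67 without injured replicate 3. The sham arrays' own code number, 3 samples per group and the lack of detection calls limit the comparison.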
